A study of Mus musculus with 6 samples.

Results

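AP-1 is a family of dimeric transcription factors. The levels of 10 of its genes were followed in cells sorted as lung endothelial cells (ECs) from leene-knockout (KO) and wild-type (WT) mice. These genes were Fos, Fosb, Fosl1, Fosl2, Jun, Junb, Jund, Atf3, Batf and Jdp2. They were picked by name, with earlier results of these data known, so their counts beside shares of all genes are a description. All 10 were found by their symbols among the 47729 genes of the count tables. The series held 3 WT and 3 KO libraries, all from male mice of 14 weeks on a normal diet that had received Angiotensin II (AngII) at 1000 ng/kg/min from an osmotic pump for 2 weeks. KO mice, on the C57BL6 background, lack the region syntenic to the human lncRNA LEENE in every cell, not in ECs alone. No library came from mice without AngII, so the AngII response itself was not measured. Lungs were digested with collagenase and the cells were sorted on CD144 (VE-cadherin) by the study's methods, whereas the labels name CD31. The part of digestion and sorting in the levels below was not tested. The labels also describe cells of 3 mice pooled in each group. The 3 libraries of a group may therefore not be 3 separate animals. The p-values below set the difference between genotypes against the spread between libraries, which may be technical. If it is, they do not cover variation between mice, and genotype cannot be told apart from the pool. The 3 noncoding genes of the deleted region (Gm41148, Gm49302 and Gm35360) had no row in the count tables, so the genotypes are those of the labels.

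AP-1 proteins carry a basic region that touches DNA and a leucine zipper through which they pair. Jun proteins pair with each other or with Fos proteins, whereas Fos proteins need a Jun partner. Fos, Fosb, Jun, Junb and Atf3 are classical early response genes, switched on within minutes of a stimulus through MAP kinases, and AngII is a well-known activator of this pathway in vessel cells. Jund is transcribed more steadily, Atf3 and Jdp2 mostly repress, and Batf is best known in lymphocytes.

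Each of 15 EC markers was detected, and the summed level of these markers lay between 2960 and 5270 CPM in WT libraries and between 3290 and 5250 CPM in KO libraries, where CPM are counts scaled to TMM-adjusted library size. Total counts lay between 24464324 and 35184063 per library. Transcripts of other lung cells were present in every library, and the summed level of 6 alveolar type II markers was 5080, 47100 and 14600 CPM in WT replicates 1, 2 and 3 against 37100 to 45700 CPM in KO. WT replicate 2 thus lay near the KO libraries in this respect, and results are also given without it. The summed level of 4 airway epithelium markers was 15400 to 40400 CPM in WT and 33600 to 56800 CPM in KO. WT replicates 1 and 3 lay below every KO library in both epithelial sums. Without WT replicate 2, genotype therefore cannot be told apart from epithelial content. Both epithelial sums lay above the sum of the EC markers in every library. The AP-1 levels below are therefore those of the sorted cells as a whole, and not of ECs alone. Cells of a type and RNA per cell cannot be told apart in such libraries.

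Promoter windows from RefSeq (GRCm38.p6), the 250 bases before the start site, were matched for 9 of the 10 genes. The motif TGACG, the core of the cAMP response element bound by CREB and ATF proteins, was found on either strand in the 11 windows of these genes for 6 of the 9 (Atf3, Fos, Fosb, Junb, Batf and the second of the Jdp2 windows), against 17.8% of all 32841 windows. The whole element TGACGTCA, which contains that core, was in none of the 9 and in 1.55% of all windows. The AP-1 site TGACTCA, which reads TGAGTCA on the other strand, was likewise in none, and in 4.46% of all windows. The variant TGACATCA, which reads TGATGTCA on the other strand and is bound by Jun and ATF2 in the Jun gene, was in the Jun window and in 2.93% of all. The heat shock element GAANNTTC, the same on both strands, was in the windows of Jun and Fosl2 and in 6.70% of all. The CArG box of serum response factor was in none and in 1.47% of all windows. Sites further than 250 bases before the start lay outside the windows, so their absence from these genes was not shown. The windows of Atf3 and Fosl2 lay within the counted genes, which begin at 191218039 (Atf3, minus strand) and 32135801 (Fosl2, plus strand). Sequence before these outer ends was not scanned. These shares are of windows, whereas the members are counted as genes, and Jdp2 has more than 1 window. The GC content of the member windows ran from 46.4% (Batf) to 72.4% (the second of Jdp2), and the windows behind the shares were not matched for it. A match is a description of letters and not of binding. Shown here, 5′ to 3′ and with the matches in capitals, are the windows of Atf3 and Fosl2, which had the lowest p-values between the genotypes, and of Fos and Jun, the founding members of the family.

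Atf3 (chr1:191183334-191183583, minus strand): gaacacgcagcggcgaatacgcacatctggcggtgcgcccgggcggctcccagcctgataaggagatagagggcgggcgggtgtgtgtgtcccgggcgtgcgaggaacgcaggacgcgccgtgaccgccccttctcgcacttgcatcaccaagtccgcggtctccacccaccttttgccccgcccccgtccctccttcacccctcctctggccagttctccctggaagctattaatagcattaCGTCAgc

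Fosl2 (chr5:32136222-32136471, plus strand): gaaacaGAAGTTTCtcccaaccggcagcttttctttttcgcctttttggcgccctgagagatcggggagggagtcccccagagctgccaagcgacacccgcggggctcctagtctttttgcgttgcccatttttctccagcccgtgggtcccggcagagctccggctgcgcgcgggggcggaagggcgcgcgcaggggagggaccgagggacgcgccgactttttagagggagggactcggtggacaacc

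Fos (chr12:85473640-85473889, plus strand): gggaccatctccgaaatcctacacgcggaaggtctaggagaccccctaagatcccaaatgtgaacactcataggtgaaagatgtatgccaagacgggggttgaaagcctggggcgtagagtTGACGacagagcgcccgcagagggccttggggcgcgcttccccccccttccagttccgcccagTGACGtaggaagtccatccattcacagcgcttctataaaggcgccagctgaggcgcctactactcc

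Jun (chr4:95052223-95052472, minus strand): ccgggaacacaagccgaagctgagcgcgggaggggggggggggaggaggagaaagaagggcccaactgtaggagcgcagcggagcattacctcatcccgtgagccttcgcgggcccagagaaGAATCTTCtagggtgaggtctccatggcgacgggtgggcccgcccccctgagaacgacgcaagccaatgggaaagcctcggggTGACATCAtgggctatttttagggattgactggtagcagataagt

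Per kilobase of exon, Jun was the most abundant of the 10 transcripts in WT, with a mean level of 68.7 FPKM, that is CPM divided by the exon length in kilobases. Jund followed with a level of 36 FPKM, Jdp2 with 13.7 FPKM and Junb with 13.3 FPKM, and the libraries of the latter pair overlapped. Atf3 was at 6.19 FPKM, Fosl2 at 4.28 FPKM and Fos at 4.03 FPKM. The levels of Fos overlapped with those of Fosl2 and also of Atf3, with Fos at 6.08 FPKM in WT replicate 2 and Atf3 at 5.32 FPKM in WT replicate 1. Batf was at 2.24 FPKM, and Fosl1 and Fosb were the lowest at 0.376 and 0.344 FPKM. In KO the order began again with Jun (54.1 FPKM) and Jund (27.9 FPKM), followed by Junb (9.99 FPKM) and Jdp2 (8.65 FPKM). Atf3 was the fifth in WT and the seventh in KO, at 1.66 FPKM, behind Fos (3.03 FPKM) and Fosl2 (2.31 FPKM), with which its KO libraries overlapped.

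All 9 members that could be tested had a lower mean in KO than in WT, and none passed an adjusted p of 0.05 (quasi-likelihood test of edgeR, with the Benjamini-Hochberg adjustment made across 14625 genes). Over all genes, 0.109% passed in either direction. At an unadjusted p under 0.05, 7 of the 9 members had a lower level in KO, against 4.68% of all genes tested. Every KO library lay below every WT library for 6 members (Atf3, Fosl2, Jdp2, Fosb, Jund and Batf), against 9.20% of all genes. The median log2 fold change of the 9 members was -0.66, beside 0.03 over all genes, of which 45.9% were below 0. DESeq2, the tool of the study's methods, called Atf3 and Fosl2, against 0.594% of the genes with an adjusted p that it called lower in KO. Without WT replicate 2 the quasi-likelihood test called Atf3, Fosl2 and Jdp2, against 0.876% of genes called lower in KO. In that subset genotype cannot be told apart from epithelial content. For a gene taken alone, exact permutation of the 6 libraries gives a p of 0.1 at the lowest. The 9 members had at least 16 counts in every library, and Fosl1 did not pass the filter on low counts.

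**Figure D1:**
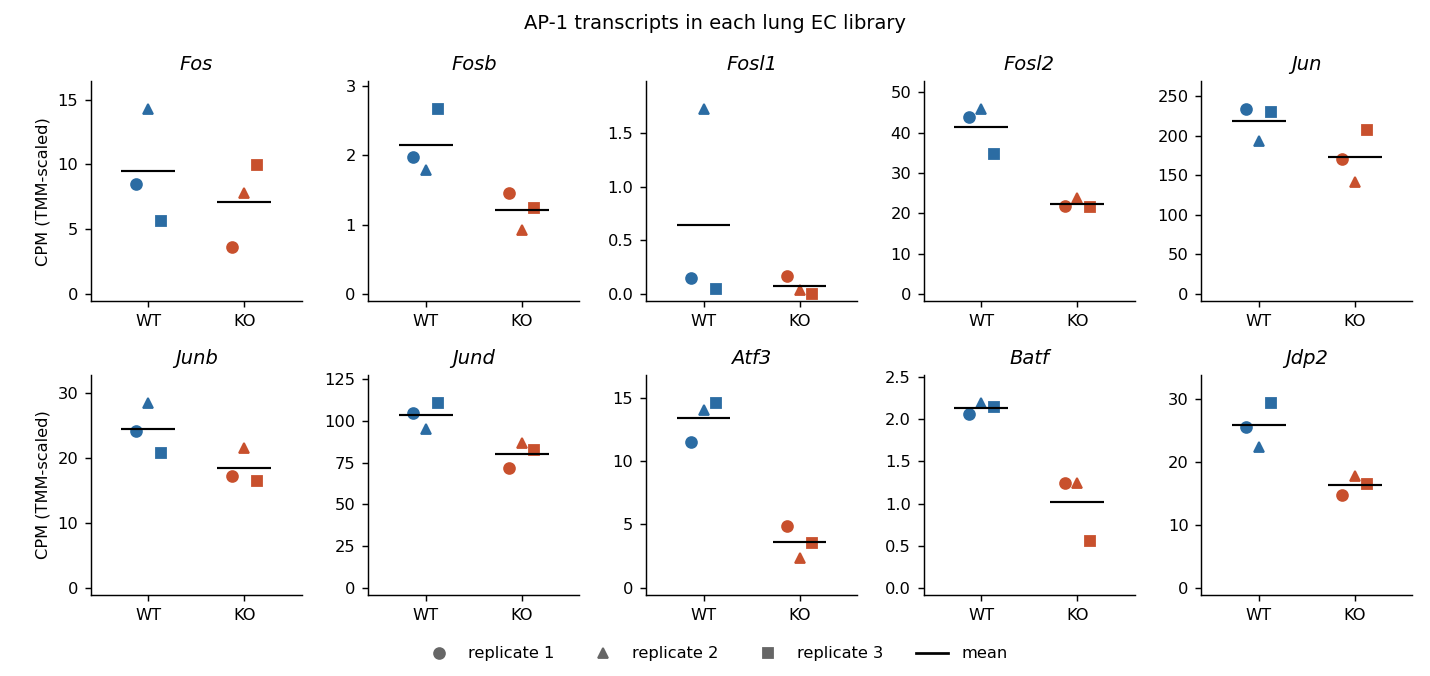
Level of each AP-1 transcript in CPM (linear axis, TMM-scaled) in the 3 WT and 3 KO libraries, with symbols for the replicate number and a bar for the mean of the group. Atf3 lies between 11.5 and 14.6 CPM in WT and between 2.32 and 4.90 CPM in KO, whereas the groups of Fos and Jun overlap.

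Atf3 showed the widest gap. This stress-induced factor, which can pair with Jun proteins and often represses, was measured at 11.5, 14.0 and 14.6 CPM in WT, against 4.90, 2.32 and 3.52 CPM in KO. The groups did not overlap, and the KO mean was 26.8% of the WT mean. The quasi-likelihood test put the log2 fold change at -1.90 ± 0.27 (SE) with an adjusted p of 0.0721, and its p-value ranked 28th of 14625 genes. DESeq2 gave a log2 fold change of -1.93 with an adjusted p of 1.15e-07.

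As a description, the log2 ratio of Atf3 to each of the 8 other members was taken within each library. Atf3 was taken for its difference, the widest of the 9, so a lower ratio in KO follows from that choice and was not tested. The ratio to Jun was -4.35, -3.79 and -3.98 in WT and -5.12, -5.92 and -5.88 in KO, a difference of -1.60. For 6 of the 8 ratios every KO library was below every WT library, and the differences of the 8 ran from -1.60 to -0.79. The ratios of Atf3 to Fos and to Batf overlapped between the groups.

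Among the Fos proteins, Fosl2 was the one with the clearest separation. Fosl2 encodes FRA2, a Fos protein without a strong activation domain of its own, and was at 43.8, 45.9 and 34.6 CPM in WT, compared with 21.7, 23.9 and 21.5 CPM in KO. The KO libraries lay close together at 54.0% of the WT mean. The quasi-likelihood test put the log2 fold change at -0.89 ± 0.15 (SE) with an adjusted p of 0.101, while DESeq2 gave an adjusted p of 0.000645. Fosb, a low-abundance early gene, was at 1.98, 1.79 and 2.67 CPM in WT, compared with 1.46, 0.920 and 1.24 CPM in KO. Its groups did not overlap, but it rested on 25 to 81 counts per library, and the log2 fold change of -0.82 ± 0.33 (SE) had an adjusted p of 0.468.

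Fos itself, the archetypal early gene, was at 8.47, 14.3 and 5.67 CPM in WT, compared with 3.65, 7.76 and 9.93 CPM in KO. The groups overlapped, and the spread within each was wider than the difference between them (log2 fold change -0.41, SE 0.43, adjusted p = 0.730). Without WT replicate 2, its highest library, the log2 fold change of Fos was -0.03. Fosl1, which encodes FRA1, had 6, 59 and 1 counts in WT and 4, 1 and 0 counts in KO. Only WT replicate 2 carried an appreciable number of reads, and the 0 counts of KO replicate 3 allow up to 0.103 CPM (3 counts). Intervals of this kind cover counting error only.

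Jun, the most abundant member, was at 234, 193 and 230 CPM in WT, compared with 170, 141 and 207 CPM in KO, where KO replicate 3 lay above WT replicate 2. The KO mean was 78.8% of the WT mean, with a log2 fold change of -0.34 ± 0.19 (SE, adjusted p = 0.561). Junb, which can restrain Jun and has an early induction of its own, was at 24.2, 28.5 and 20.7 CPM in WT, compared with 17.2, 21.5 and 16.5 CPM in KO. Its groups overlapped by KO replicate 2 alone, at a log2 fold change of -0.41 ± 0.17 (SE, adjusted p = 0.476). Jund was at 105, 95.2 and 111 CPM in WT, compared with 71.8, 86.8 and 82.7 CPM in KO. These groups did not overlap, with a log2 fold change of -0.37 ± 0.14 (SE, adjusted p = 0.455).

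Jdp2, a repressor that pairs with Jun proteins, was at 25.6, 22.3 and 29.4 CPM in WT, compared with 14.7, 17.7 and 16.4 CPM in KO. The KO mean was 63.1% of that in WT, and its difference of -0.66 ± 0.15 (SE) on the log2 scale had an adjusted p of 0.259 in edgeR and 0.0591 in DESeq2. Batf, a partner of Jun proteins in lymphocytes, was at 2.06, 2.20 and 2.15 CPM in WT, compared with 1.25, 1.25 and 0.552 CPM in KO. It was lower in each KO library, on 16 to 84 counts, with a log2 fold change of -1.08 ± 0.38 (SE, adjusted p = 0.423). The summed level of 7 B cell markers lay the other way, between 8.27 and 17.5 CPM in WT and between 62.9 and 68.3 CPM in KO, and that of 7 T cell markers was between 2.42 and 4.43 CPM in WT and between 6.48 and 9.80 CPM in KO. The part of these cells in the level of Batf was not tested. The summed level of 8 mesenchymal markers was 459 to 872 CPM in WT and 584 to 818 CPM in KO. Of these markers, 4 had a log2 fold change below 0, beside 45.9% of all genes. Col1a2, Dcn, Pdgfra and Pdgfrb were above 0, the last at 0.60 (quasi-likelihood adjusted p = 0.544). The smooth muscle genes Tagln and Acta2, named after their values were seen, were lower in every KO library than in any WT library. Such a separation was found for 9.20% of all genes. Tagln was at 79.2 ± 8.93 CPM in WT, against 37.9 ± 8.61 CPM in KO (adjusted p = 0.140, DESeq2 0.000531), and Acta2 at 39.8 ± 3.96 and 27.5 ± 4.54 CPM (adjusted p = 0.363, DESeq2 0.227). The part of these cells in the levels of the AP-1 genes was not tested either.

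**Figure D2:**
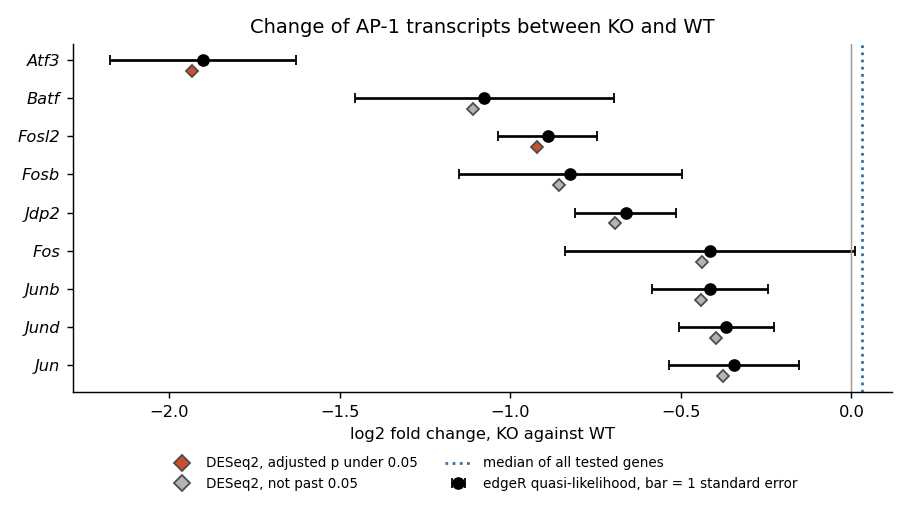
Log2 fold change of the 9 tested AP-1 transcripts between KO and WT (black, edgeR, bars of 1 standard error) with that of DESeq2 (diamonds, red where the adjusted p was under 0.05), and a dotted line at the median of all tested genes (0.03). All lie below 0, from -0.34 for Jun to -1.90 for Atf3, and DESeq2 called Atf3 and Fosl2.

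The direction held in each of 18 alternatives, which changed the test, the scaling or the filter, added the replicate number as a block or left out a library. The log2 fold change of Atf3 ran from -2.21 to -1.69 with 1 library left out and from -2.05 to -1.90 under the other alternatives, and that of Fosl2 from -1.02 to -0.85 and from -1.08 to -0.88. For Fos it ran from -0.73 to -0.03 with 1 library left out. Atf3 was called in 6 of the 18 alternatives, Fosl2 in 4 and Jdp2 in 1, and the other 6 tested members in none. The adjusted p of Atf3 was highest, at 0.396, without KO replicate 3.

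**Figure D3:**
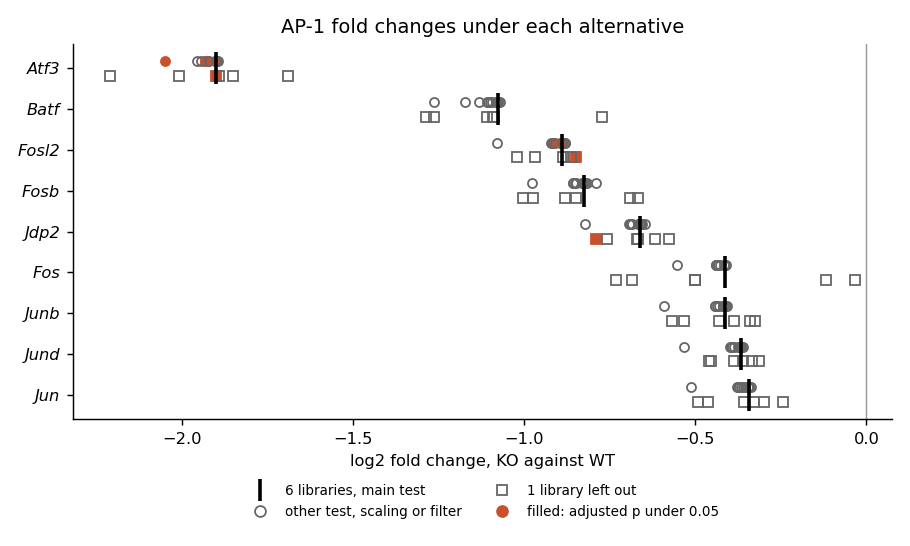
Log2 fold change of each tested AP-1 transcript under 18 alternatives (circles for another test, scaling or filter, squares for 1 library left out, red filling where the adjusted p was under 0.05) beside the value from all 6 libraries (black tick). Every symbol is below 0, and the squares of Fos spread most widely relative to its value, from -0.73 to -0.03.

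Since Fos proteins bind DNA only with a partner, the make-up of each family was described per library, as shares of the summed counts per kilobase and without a test. Jun made up 58.1% ± 2.26 (SD, n = 3) of Jun family transcripts in WT and 58.5% ± 6.32 in KO, Jund 30.5% ± 0.967 and 30.5% ± 3.95, and Junb 11.4% ± 2.56 and 10.99% ± 2.46. These means differed by less than the spread between libraries. Within the Fos family, Fosl2 held 49.2% ± 8.83 in WT and 43.1% ± 10.486 in KO, and Fos 43.3% ± 6.41 and 52.3% ± 13.3. Without division by length, Fosl2 held 77.7% of the Fos family counts in WT and 73.2% in KO, and Fos 17.1% and 22.6%, so that the order of this pair in KO depended on the scale. The difference in the per-kilobase share of Fos was 8.99 percentage points and ran from 3.33 without KO replicate 3 to 16.3 without KO replicate 1. In WT replicate 2, Fosl1 reached 8.37% of the family, against 0% to 2.44% in the other libraries. The summed level of the Jun family was 123, 109 and 122 FPKM in WT and 87.8, 86.0 and 103 FPKM in KO, without overlap. That of the Fos family was 8.53, 12.1 and 6.43 FPKM in WT and 4.13, 5.94 and 6.64 FPKM in KO, with KO replicate 3 above WT replicate 3. Jun family transcripts exceeded those of the Fos family by 9 to 19 times in WT and by 14.5 to 21.3 times in KO.

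**Figure D4:**
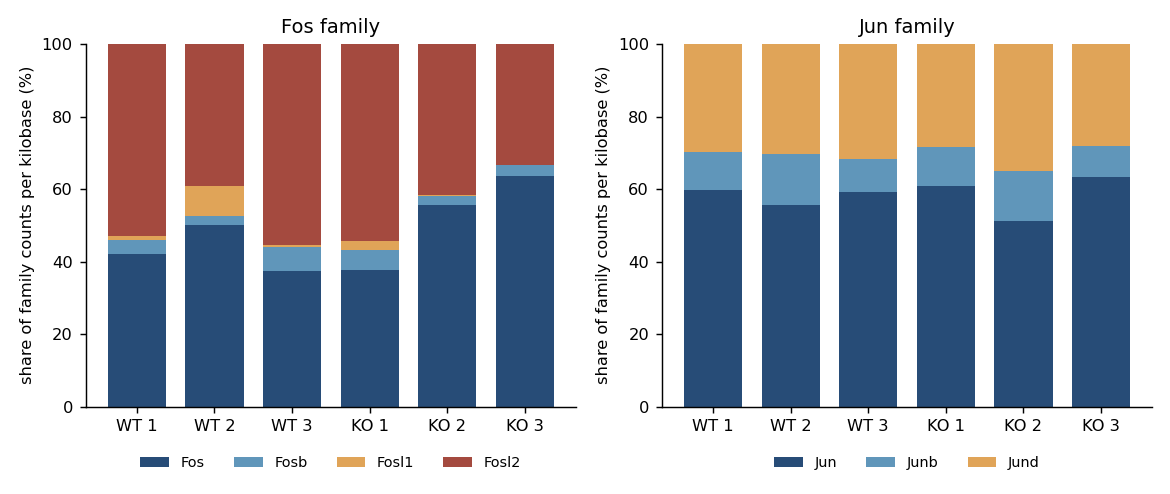
Share of each member in the summed counts per kilobase (in percent) of the Fos family, on the left, and of the Jun family, on the right, in each WT and KO library. Jun holds 51.3% to 63.2% of its family in every library, and Fosl1 is visible mainly in WT replicate 2, at 8.37%.

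Several members lie close together in the genome. On chromosome 12 of GRCm38, Fos (85473890 to 85477273), Jdp2 (85599105 to 85639878) and Batf (85686669 to 85709087) stand on the plus strand within 235.2 kb. Of the 9 other tested genes within 250 kb of this stretch, 0 had an unadjusted p under 0.05 in either direction in edgeR's quasi-likelihood test, and none in DESeq2 an adjusted p under 0.05, with a median log2 fold change of -0.01. Jund (70697739 to 70700616) and Junb (84976909 to 84978748) are both on chromosome 8 but far apart. Atf3 is on chromosome 1 (191170296 to 191218039), Jun on chromosome 4 (95049034 to 95052222), Fosl2 on chromosome 5 (32135801 to 32157842), Fosb on chromosome 7 (19302696 to 19310051) and Fosl1 on chromosome 19 (5447703 to 5455945).

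Genes that act with AP-1 were taken from lists, which were chosen with earlier results of these data known. Counts within the lists are therefore a description and not a test. Of 8 tested bZIP factors that can pair with AP-1 proteins, Maff passed and fell from 50.1 ± 2.82 CPM to 19.4 ± 2.09 CPM (log2 fold change -1.37, adjusted p = 0.0188). Maff is a small MAF protein without an activation domain. A lower level in KO at an unadjusted p under 0.05 was found for 3 of the 8, beside 4.68% of all genes. Each of the 3 had all KO libraries below all WT libraries, beside 9.20% of all genes. These were Maff and the other small MAF genes, Mafk and Mafg, the latter named after its values were seen. Mafg was at 40.5 ± 2.03 CPM in WT, against 30.7 ± 1.84 CPM in KO (adjusted p = 0.351). Mafk was at 110 ± 9.15 and 78.7 ± 9.78 CPM (adjusted p = 0.367), and Atf7 at 43.5 ± 6.93 and 41.5 ± 6.75 CPM (adjusted p = 0.896). The median log2 fold change of these 8 genes was -0.05.

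None of 16 tested MAP kinases and related kinases had an unadjusted p under 0.05 in edgeR's test or was called by DESeq2, and their median log2 fold change was -0.07. Mapk3, which encodes a MAP kinase, was at 252 ± 39.8 CPM in WT, against 254 ± 19.7 CPM in KO. Of 12 factors that bind the Fos and Jun promoters, 2 had lower KO levels by an unadjusted p under 0.05, beside 4.68% of all genes. Neither tool called any of the 12, and their median was -0.09. Elk3 was at 103 ± 14.0 CPM in WT, compared with 111 ± 9.23 CPM in KO, and Mef2a at 137 and 135 CPM, a difference within the spread between libraries. Of 12 genes that restrain AP-1, 2 were lower at an unadjusted p under 0.05, beside 4.68% of all genes. DESeq2 called 1, beside 0.594% of all genes with an adjusted p that it called lower. This was the MAP kinase phosphatase gene Dusp6, which is named here after its values were seen. Dusp6 was at 84.7 ± 13.9 CPM in WT, compared with 49.4 ± 5.50 CPM in KO (quasi-likelihood adjusted p = 0.249, DESeq2 0.0161). The corepressor gene Ncor1 was at 143 ± 6.33 and 119 ± 3.88 CPM (adjusted p = 0.528), and Zfp36l1, whose product destabilises mRNAs, at 89 and 91.6 CPM (adjusted p = 0.918).

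AP-1 target genes showed no common direction. Of 27 tested, 14 were below 0, beside 45.9% of all genes. By an unadjusted p under 0.05, 4 were lower, beside 4.68% of all genes, and 1 was higher. The quasi-likelihood test and DESeq2 called 0, and the median log2 fold change was 0.00 after rounding. Ccnd1, which encodes cyclin D1, was at 470 ± 106 CPM in WT, compared with 431 ± 67.1 CPM in KO. The adhesion molecule gene Icam1 was at 74.2, 403 and 188 CPM in WT, compared with 280, 262 and 233 CPM in KO, within the range of WT.

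Of 21 other immediate early genes, 20 were below 0, beside 45.9% of all genes, with a median log2 fold change of -0.72. At an unadjusted p under 0.05, 13 had lower KO levels, beside 4.68% of all genes. The gene above 0 was Egr1, named after its values were seen (log2 fold change 0.20, quasi-likelihood adjusted p = 0.855). Csrnp1 was called by the quasi-likelihood test and fell from 27.8 ± 2.83 to 11.2 ± 1.34 CPM (adjusted p = 0.0352), and DESeq2 called 7 of the list, beside 0.594% of all genes called lower. Klf2 and Klf4, flow-responsive factors of ECs, were at 271 ± 19.0 and 220 ± 4.51 CPM in WT, compared with 130 ± 13.2 and 110 ± 8.70 CPM in KO. Neither passed the quasi-likelihood test (adjusted p = 0.0852 and 0.0721), and DESeq2 called both (adjusted p = 8.93e-08 and 1.94e-08). All 16 heat shock genes were below 0, with a median of -1.20, and 5 fell at an adjusted p under 0.05, beside 0.109% of all genes called in either direction: Hspa1b (-3.37), Hsph1 (-2.17), Hspb1 (-1.53), Stip1 (-1.33) and Chordc1 (-0.96), each a log2 fold change. The summed level of the heat shock list was 1920 to 2670 CPM in WT, compared with 1020 to 1090 CPM in KO. Hspa1b has a near-identical copy, Hspa1a, so its count is uncertain. Both lists were chosen with earlier results of these data known, so their counts beside the shares of all genes are no test. The part of the heat shock and early response in the levels of the AP-1 genes was not tested.

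**Figure D5:**
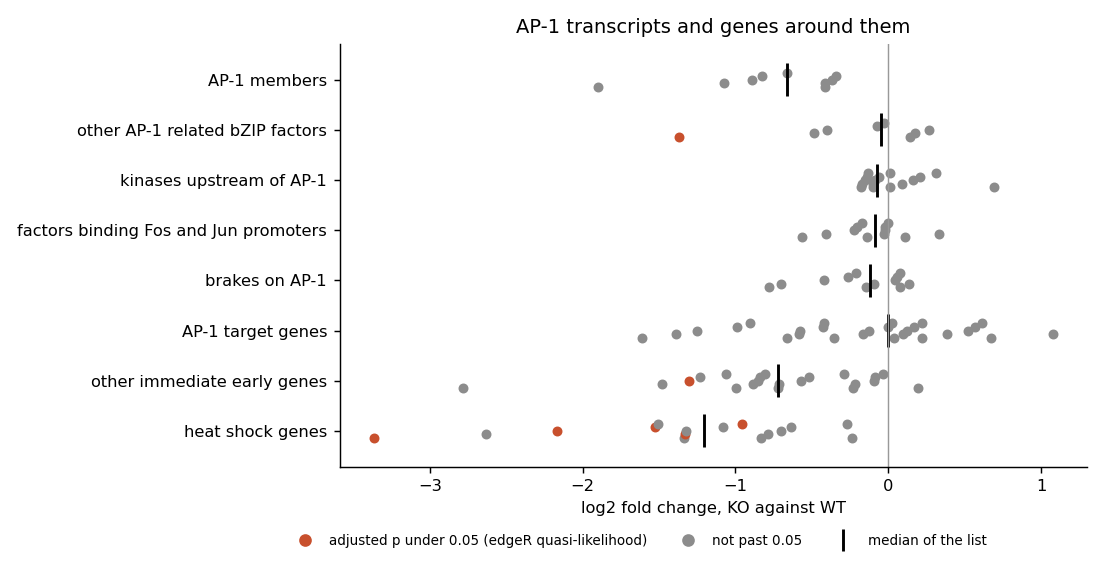
Log2 fold change between KO and WT of each tested gene in the AP-1 family and 7 lists of related genes, with a bar at the median of each list and red points where the adjusted p was under 0.05. The medians of the AP-1 members (-0.66), other immediate early genes (-0.72) and heat shock genes (-1.20) lie below 0, and those of the other 5 lists between -0.12 and 0.00.

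For the 5 members with a mean of at least 20 CPM, the transcripts most like them over the 6 libraries were sought among 5609 genes, as a description. These were Phf23, Mtmr10 and Camta2 for Jun (Pearson's r of log2 CPM 0.9945, 0.992 and 0.992) and Alyref, Dcaf1 and Tbc1d8 for Jund (0.991, 0.990 and 0.988). For Junb they were Vav2, Ccng1 and Sod2 (0.9935, 0.973 and 0.967), for Fosl2 Xpnpep1, Synpo and Actr1b (0.992, 0.985 and 0.983), and for Jdp2 Ube2l3, Ppp1r11 and Srsf2 (0.994, 0.992 and 0.9895). No gene was shared between the 5 lists. With 6 points that also differ by genotype and so many genes searched, these values describe the libraries and nothing more.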

How the data were processed

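Gene counts of 3 WT and 3 KO libraries of cells sorted as mouse lung ECs were used. The authors deposited raw counts per gene, without normalization, 1 table per library. Per the file headers, featureCounts 2.0.0 counted uniquely aligned reads over exons in the reverse orientation with the Ensembl release 84 annotation of GRCm38, and the submitters' processing notes name STAR 2.5.4b and mm10. The deposited exon lengths (another column of the same tables) were used for FPKM. Symbols were matched by gene identifier to a reference table of gene names (47224 of 47729 genes).

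Genes were kept by filterByExpr, scaled by TMM and tested in edgeR 4.0.16 (R 4.3.3) with glmQLFit and glmQLFTest, genotype as the only term, with Benjamini-Hochberg adjustment of the p-values across all 14625 genes. CPM use TMM-scaled library sizes, and a standard error is the log2 fold change divided by the square root of F. Alternatives were DESeq2 1.42.0, limma-voom (limma 3.58.1), edgeR's likelihood ratio test, scaling by total counts, upper quartiles or RLE, other filters and dispersion options, the replicate number as a block and each library left out. On counts drawn with 200 of 14625 genes shifted by 1.5 on the log2 scale for this comparison, the main test recovered 158 with 6 false calls. That shift was larger than the change of every tested member except Atf3, so this recovery does not apply to the other members.

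The 10 genes and the lists were chosen with earlier results of these data known. Text names all members, list genes that passed (or, with fewer than 2, also the 2 most abundant tested), and the 3 genes most like each member. The values of 1 gene that this rule names are not reported here. Total counts were 24464324 to 35184063 per library, and mitochondrial genes took 37.4% to 54.5% of them. The lowest chi-square per degree of freedom between any pair of libraries was 37.0, so none was counted as a duplicate.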

Additional observations from a re-analysis of the deposited data

How the results depend on the processing

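With the 9 tested members called 0 times by the quasi-likelihood test, other tests and scalings called more: DESeq2 2 (185 DEGs in all, against 16 in the reported test), edgeR's likelihood ratio test 2 (211 DEGs), no filter on low counts 2 (152 DEGs), upper-quartile scaling 1 (31 DEGs), total counts 1 (123 DEGs) and an unadjusted p under 0.05 gave 7 (1506 genes). limma-voom and RLE scaling gave 26 DEGs each and 0 members. Total counts moved the median of all genes to -0.13, and the 9 members were below it. With each library left out in turn, 0 to 3 members and 0 to 791 DEGs were called. The 3 members and 791 DEGs came without WT replicate 2, and 0 DEGs when a KO library was the one left out, while 3 to 6 members had an unadjusted p under 0.05. Without WT replicate 2, genotype cannot be told apart from epithelial content. Every member kept its direction in all 18 alternatives.

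The replicate number as a block gave 0 DEGs and 0 members, with 1776 genes and 6 members at an unadjusted p under 0.05. Deviations from the group mean correlated at -0.08, 0.22 and 0.01 between same-numbered libraries. Between differently numbered libraries the correlations ran from -0.185 to 0.194, so 0.22 was the highest of all. These values do not settle whether the numbers mark pairs, and the numbers were taken as names only. The causes of these differences were not tested.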
